A study of Mus musculus with 6 samples.

Results

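The respiratory chain and the ATP synthase of the mitochondrial inner membrane were followed gene by gene in mouse macrophages that had met apoptotic cells. Members were the rows of the deposited table whose gene symbol starts as the symbols of these subunits do (Nduf followed by a, b, c, s or v and a number, Sdha to Sdhd, Uqcr, Cox4 to Cox8, Atp5, and the mt-Nd, mt-Co, mt-Cytb and mt-Atp genes). The rule found 98 of 38124 rows, 85 of them encoded in the nucleus and 13 in the mitochondrial genome. No expression value entered the rule. Of the 85 nuclear rows, 35 encode subunits of complex I, 4 of complex II, 8 of complex III, 20 of complex IV (Ndufa4 and its paralog Ndufa4l2 are counted there, where the Ndufa4 protein is known to sit) and 15 of complex V. The remaining 3 nuclear rows were Atp5s and Atp5sl, which encode no subunit, and a pseudogene, Atp5l-ps1.

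The RNA came from bone-marrow-derived macrophages, cells grown in culture from marrow precursors of wild-type C57BL mice, and was sequenced after selection for poly(A) tails. One group of 3 libraries came from macrophages kept for 24 hr with thymocytes that dexamethasone had driven into apoptosis, at a ratio of 1:40, and the apoptotic cells were removed before harvest. The other group of 3 libraries came from macrophages left untreated. The submitters describe every sample as a biological replicate, without saying whether mice were pooled. The untreated cultures received no thymocytes at all, so the comparison does not separate apoptotic cargo from the addition of cells or from dexamethasone carried with them.

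Complexes I to IV pass electrons from NADH and succinate through coenzyme Q and cytochrome c to oxygen. Complexes I, III and IV move protons across the inner membrane as they do so, and complex V, the ATP synthase, uses the return flow of protons to make ATP. Every complex but II is built from subunits of 2 genomes: the mitochondrial DNA encodes the most hydrophobic subunits, and the nucleus encodes the rest, which are imported. In macrophages the chain is known to supply ATP and also to produce reactive oxygen species, and its activity is known to differ between activation states.

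The 13 mitochondrial members lie so close together that some reading frames share bases, which bears on how reads can be assigned to them. In GENCODE M21 on GRCm38, 4 such overlaps join members, and the 3 longer ones are printed from the plus strand as the last bases of the upstream gene, with the shared bases in capitals. mt-Atp8 shares 43 bases with mt-Atp6 (MT:7900-7969), mt-Nd4l shares 7 bases with mt-Nd4 (MT:10104-10173), and mt-Nd5 shares 14 bases with mt-Nd6, which is read from the opposite strand (MT:13496-13565).
mt-Atp8: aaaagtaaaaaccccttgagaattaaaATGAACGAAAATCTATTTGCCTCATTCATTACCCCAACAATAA
mt-Nd4l: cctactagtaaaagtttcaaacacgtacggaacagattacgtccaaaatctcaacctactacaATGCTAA
mt-Nd5: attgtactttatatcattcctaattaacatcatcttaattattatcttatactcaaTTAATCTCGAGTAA
In the first pair the capitals open with the ATG of mt-Atp6 and close with the TAA of mt-Atp8, so that both proteins are read from the same bases. In the third pair the capitals are the end of mt-Nd5 and, on the other strand, the end of mt-Nd6. How the authors' counting treated reads in shared bases, and whether it used the strand that the library kit keeps, is not given in the sources used here, so the values of these neighbours are not fully independent of each other.

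The libraries held between 22782450 and 25933208 reads with apoptotic thymocytes and between 19315132 and 23907256 reads in untreated macrophages, recovered from the spacing of the RPKM values (reads per kilobase of gene, scaled to the mapped reads of the library). Across all 10173 genes tested with limma on log2(RPKM + 1), 64.8% passed a Benjamini-Hochberg adjusted p of 0.05, 18.8% higher and 46.0% lower with apoptotic thymocytes, and the median gene had a log2 change of -0.13. Macrophage markers were present in every library, with a summed level of 19983 to 22323 RPKM with apoptotic thymocytes and 15404 to 16124 RPKM in untreated macrophages; Lyz2 was higher, and the genes Emr1 (Adgre1), Csf1r, Cd68, Itgam and Fcgr1 were lower. Of 16 thymocyte and T cell markers, Cd3e, Cd8b1, Ptcra, Rag2 and Themis were listed at 0 in all 6 libraries and 15 were below 1 RPKM in all. Without Cd4, which was lower, the thymocyte markers summed to 0.273, 0.185 and 0.289 RPKM with apoptotic thymocytes, against 0.758, 0.479 and 0.642 RPKM in untreated macrophages. The 3 tested neutrophil markers of 6 (S100a8, S100a9 and Ngp) were all higher, S100a9 and Ngp having reached the test through the libraries with apoptotic thymocytes alone, with a summed list level of 39.5 to 42.5 RPKM with apoptotic thymocytes and 6.37 to 7.01 RPKM in untreated macrophages. Ly6g was listed at 0 in all libraries, which is not read as absence, since the authors' counting left other rows at 0 too. No marker of B cells, dendritic cells, red cells or fibroblasts reached the test, and their lists summed to at most 0.195, 0.0534, 1.48 and 1.12 RPKM with apoptotic thymocytes and at most 0.596, 0.121, 0.0515 and 1.39 RPKM in untreated macrophages; the part of any of these in the results that follow was not tested.

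The 2 genomes moved in opposite directions. Of the 85 nuclear members, 76 reached 1 RPKM in at least 3 libraries and were tested: 37 rose with apoptotic thymocytes, 5 fell and 34 did not pass. All 13 mitochondrial members were tested: 10 fell, none rose in the limma fit (nor at an unadjusted p of 0.05, where the count was also 0), and 3 did not pass. The median log2 change was 0.15 over the tested nuclear members and -0.33 over the mitochondrial members, and under the other scalings it ran from 0.04 to 0.32 and from -0.44 to -0.15. Without the second library with apoptotic thymocytes 24 nuclear members rose, and without the first or the third untreated library 4 or 3 mitochondrial members fell. Fewer genes passed in these fits over all tested genes as well. Without the second library with apoptotic thymocytes 1549 of 10061 rose, against 1915 of 10173 with all libraries. Without the first or the third untreated library 3733 of 9805 or 3657 of 9806 fell, against 4679 of 10173. The nuclear members thus passed in the higher direction in 48.7% of cases, against the 18.8% of all tested genes, and in the lower direction in 6.58% of cases, against 46.0%. The mitochondrial members passed in the lower direction in 76.9% of cases. The 3 libraries of either group did not overlap, with all 3 values with apoptotic thymocytes above all untreated ones, for 38 nuclear members, where 20.4% of all tested genes showed this, and the 3 values lay below for 8 mitochondrial members, where 49.1% of all tested genes did. These are levels in bulk RNA of each culture, so fewer cells holding a transcript and less of it per cell cannot be told apart.

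**Figure D1:**
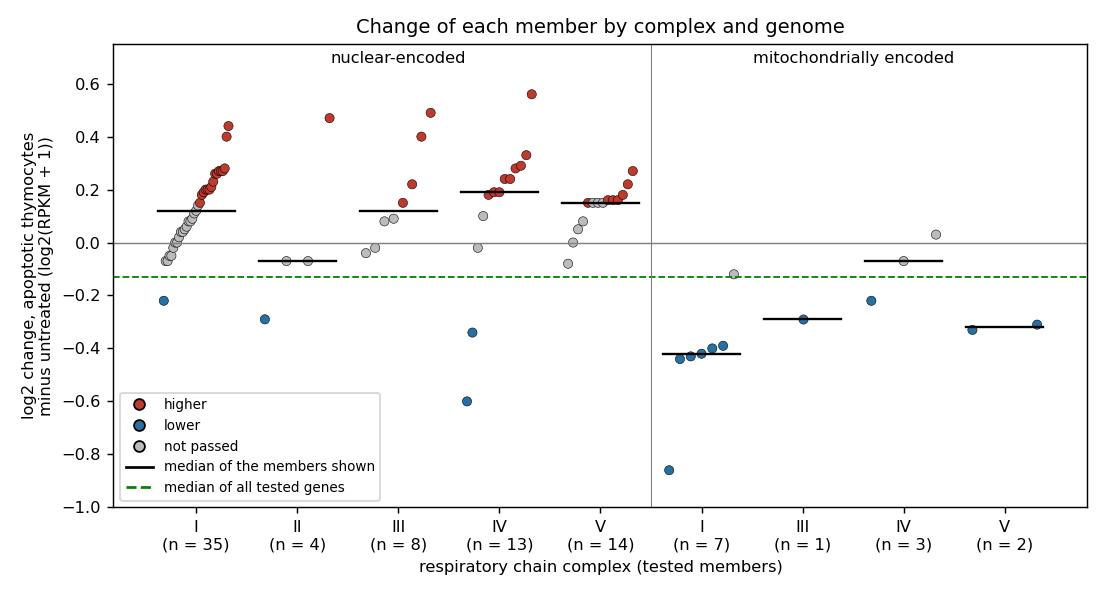
Log2 change (apoptotic thymocytes minus untreated, on the log2(RPKM + 1) scale) of each tested subunit gene, one point per gene, by complex and by encoding genome; black bars are medians of the genes shown and the green dashed line is the median of all tested genes at -0.13. Nuclear genes of complexes I, III, IV and V have medians between 0.12 and 0.19, while the mitochondrial genes lie between -0.86 and 0.03.

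The members were also summed by genome. The 13 mitochondrial members summed to 31380.4, 30135 and 26031 RPKM with apoptotic thymocytes, against 33288, 32295 and 33988 RPKM in untreated macrophages, a ratio of means of 0.879. The nuclear subunit genes summed to 4347, 4712 and 4839 RPKM with apoptotic thymocytes, against 4060.1, 4299.6 and 4048 RPKM in untreated macrophages, a ratio of 1.12. As deposited, the groups overlapped in neither sum, but the mitochondrial groups overlapped with median-of-ratios scaling (ratio 0.989) and the nuclear groups with TPM scaling (1.03). The third library with apoptotic thymocytes had both the lowest mitochondrial and the highest nuclear sum. The ratio of the mitochondrial to the nuclear sum, which does not depend on how libraries are scaled to each other, was 7.22, 6.4 and 5.38 with apoptotic thymocytes (6.33 ± 0.921, SD, n = 3) and 8.2, 7.51 and 8.4 in untreated macrophages (8.04 ± 0.465, SD, n = 3). Every library with apoptotic thymocytes lay below every untreated one. Within single complexes, the ratio of the mitochondrial to the nuclear sum with apoptotic thymocytes over that in untreated macrophages was 0.732 for complex I, 0.715 for complex III, 0.83 for complex IV and 0.743 for complex V, again without overlap of the groups in any of the 4. These sums are descriptions without a test.

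**Figure D2:**
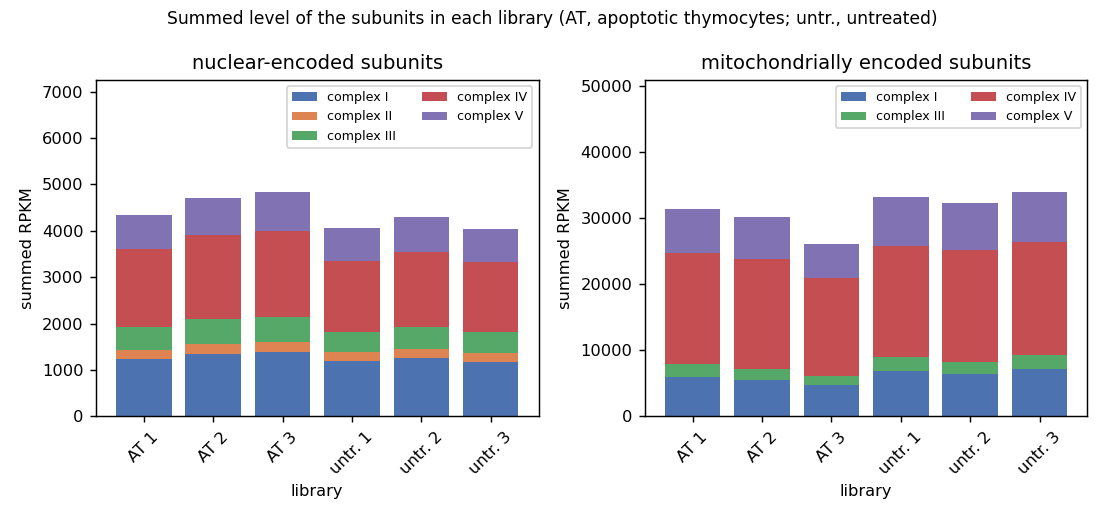
Summed RPKM of nuclear-encoded subunit genes (left) and mitochondrially encoded ones (right), stacked by complex, in each of the 6 libraries (AT, apoptotic thymocytes; untr., untreated). The nuclear stacks are 4347 to 4839 RPKM with apoptotic thymocytes and 4048 to 4299.6 RPKM in untreated macrophages, and the mitochondrial stacks are 26031 to 31380.4 RPKM with apoptotic thymocytes and 32295 to 33988 RPKM in untreated macrophages.

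Because so many genes changed, the zero point of the comparison depends on how libraries are scaled, and the counts above with it. Median-of-ratios scaling moved the median of all tested genes to 0.02, and TPM scaling, chosen after seeing the data, moved it to -0.23. With median-of-ratios scaling 57 nuclear members rose and 2 fell, and with TPM scaling 21 rose and 15 fell. Over all tested genes the split was 3234 higher and 2832 lower with median-of-ratios scaling, and 1376 higher and 6089 lower with TPM scaling. As deposited it was 1915 higher and 4679 lower. Among mitochondrial members 3 fell and 1, mt-Co1, rose with median-of-ratios scaling, and 12 fell and none rose with TPM scaling. Relative to the median of all tested genes, the median nuclear member stood 0.28 higher and the median mitochondrial member 0.20 lower (difference of -0.20), and over the 14 alternatives these distances ran between 0.17 and 0.31 for nuclear members and between -0.30 and -0.09 for mitochondrial ones. Calls that held in every alternative in which the gene was tested were 20 of the 37 nuclear rises (among them Cox5a, Sdhd, Uqcr10, Ndufb6, Ndufb9, Ndufa4 and Cox8a), 2 of the 5 nuclear falls (Cox7a1, which the filter of 5 RPKM left untested, and Cox7a2l) and 3 of the 10 mitochondrial falls (mt-Nd2, mt-Nd3 and mt-Nd6).

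**Figure D3:**
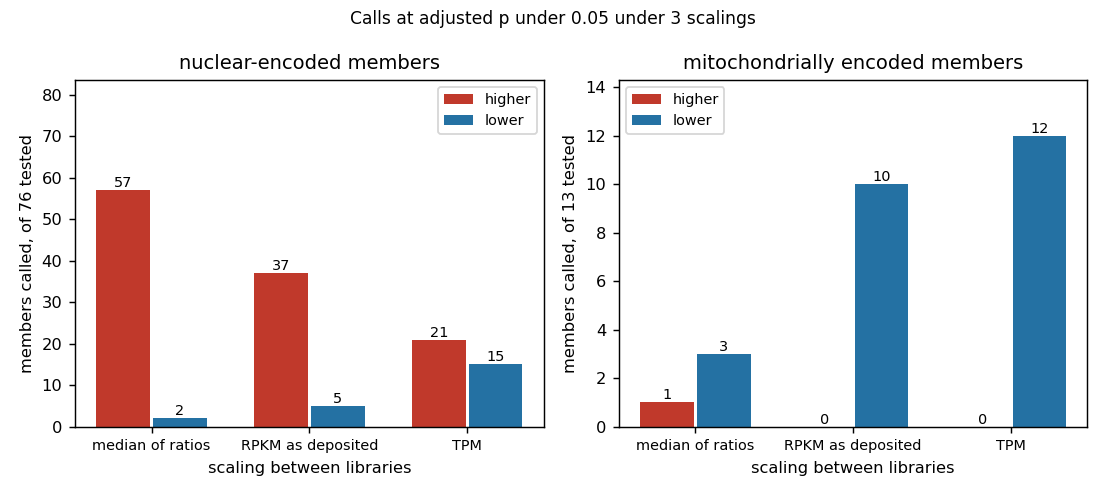
Number of nuclear (left, of 76) and mitochondrial (right, of 13) members past an adjusted p of 0.05 in each direction under 3 scalings between libraries. Nuclear rises outnumber falls in all 3 (57 to 2, 37 to 5 and 21 to 15) and mitochondrial falls outnumber rises in all 3 (3 to 1, 10 to 0 and 12 to 0).

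Among the mitochondrial members, mt-Nd6 fell most. It encodes a membrane subunit of complex I and is the only protein-coding gene of the mitochondrial light strand (GRCm38 MT:13552-14070, minus strand). Its level was 35.5, 28.3 and 29.2 RPKM with apoptotic thymocytes, against 61, 60.3 and 50.4 RPKM in untreated macrophages. The lowest untreated library lay above the highest library with apoptotic thymocytes, and the ratio of means was 0.542 (log2 change -0.86, SE 0.0961, limma adjusted p = 4.93e-05). These levels rest on 335 to 478 reads with apoptotic thymocytes and 604 to 748 reads in untreated macrophages. Per 1000 RPKM of the 12 heavy-strand members, mt-Nd6 stood at 1.13, 0.941 and 1.12 RPKM with apoptotic thymocytes, against 1.83, 1.87 and 1.49 RPKM in untreated macrophages, and again the groups did not overlap. The RNA had been selected by poly(A) tail and tail length was not measured, so a change in the level of a mitochondrial transcript and a change in its tailing cannot be told apart here.

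Of the other 6 complex I genes of the mitochondrial genome, 5 fell and mt-Nd1 did not pass. With mt-Nd6, 6 of the 7 fell (85.7%, against 46.0% of all tested genes). mt-Nd2 was at 864, 783 and 651 RPKM with apoptotic thymocytes, against 1033, 954 and 1092 RPKM in untreated macrophages, and fell by 0.43 on the log2 scale (SE 0.0992, limma adjusted p = 0.00451). mt-Nd3 was at 705, 757 and 595 RPKM with apoptotic thymocytes, against 871, 921 and 987 RPKM in untreated macrophages, and fell by 0.44 (SE 0.0886, adjusted p = 0.00212). For both genes the groups did not overlap. mt-Nd4l, mt-Nd4 and mt-Nd5, which encode further proton-pumping membrane subunits, had log2 changes of -0.39, -0.40 and -0.42 (limma adjusted p = 0.0147, 0.0161 and 0.0159), but in each of the 3 the first library with apoptotic thymocytes lay above the second untreated library. For mt-Nd4, for example, the values were 1508, 1248 and 1066 RPKM with apoptotic thymocytes, against 1720.3, 1504 and 1767 RPKM in untreated macrophages. These 3 calls were lost without the first untreated library (adjusted p = 0.0568 to 0.0605), without the third (0.0609 to 0.0638) and with median-of-ratios scaling (0.102 to 0.117). mt-Nd1, at 1906, 1845 and 1632 RPKM with apoptotic thymocytes and 1926, 1922 and 1992 RPKM in untreated macrophages, did not pass (log2 change -0.12, adjusted p = 0.146).

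The 3 mitochondrial genes of complex IV, which encode its catalytic core, had a median of -0.07, nearer to 0 than those of complexes I, III and V. mt-Co1, the most abundant member of all, was at 6911, 6888 and 6242 RPKM with apoptotic thymocytes and 6439, 6485 and 6628 RPKM in untreated macrophages, with overlapping groups (log2 change 0.03, limma adjusted p = 0.677; -0.08 with TPM scaling, and 0.20 with an adjusted p of 0.0306 with median-of-ratios scaling). mt-Co3 did not pass (log2 change -0.07, adjusted p = 0.365; 0.10 with median-of-ratios scaling). mt-Co2 was at 5097, 4843 and 4125 RPKM with apoptotic thymocytes and 5516, 5296 and 5511 RPKM in untreated macrophages, with a log2 change of -0.22 (adjusted p = 0.0461) that failed the threshold in 8 of the 14 alternatives, among them leaving out any library except the first with apoptotic thymocytes (adjusted p = 0.069 to 0.125). mt-Co1 accordingly made up 22, 22.9 and 24% of the summed mitochondrial RPKM with apoptotic thymocytes and 19.3, 20.1 and 19.5% in untreated macrophages, without overlap.

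The overlapping ATP synthase genes moved alike. mt-Atp8 was at 1839.6, 1811 and 1441 RPKM with apoptotic thymocytes, against 2134, 1993 and 2145 RPKM in untreated macrophages (log2 change -0.31, SE 0.0936, limma adjusted p = 0.0172). mt-Atp6, the channel subunit, was at 4745, 4430.4 and 3675 RPKM with apoptotic thymocytes, against 5401, 5162 and 5476 RPKM in untreated macrophages (log2 change -0.33, SE 0.0948, adjusted p = 0.0139). mt-Cytb, the only mitochondrial gene of complex III, was at 1840.3, 1705 and 1438 RPKM with apoptotic thymocytes, against 2089, 1907 and 2052 RPKM in untreated macrophages (log2 change -0.29, SE 0.09, adjusted p = 0.0203). In none of the 3 did the groups overlap, but the 3 calls were lost with median-of-ratios scaling (adjusted p = 0.172 to 0.281) and without the third untreated library (0.0523 to 0.0669), and those of mt-Atp8 and mt-Cytb also without the first (0.0594 and 0.0745). The third library with apoptotic thymocytes was the lowest of its group for 12 of the 13 mitochondrial members, mt-Nd6 being the exception.

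**Figure D4:**
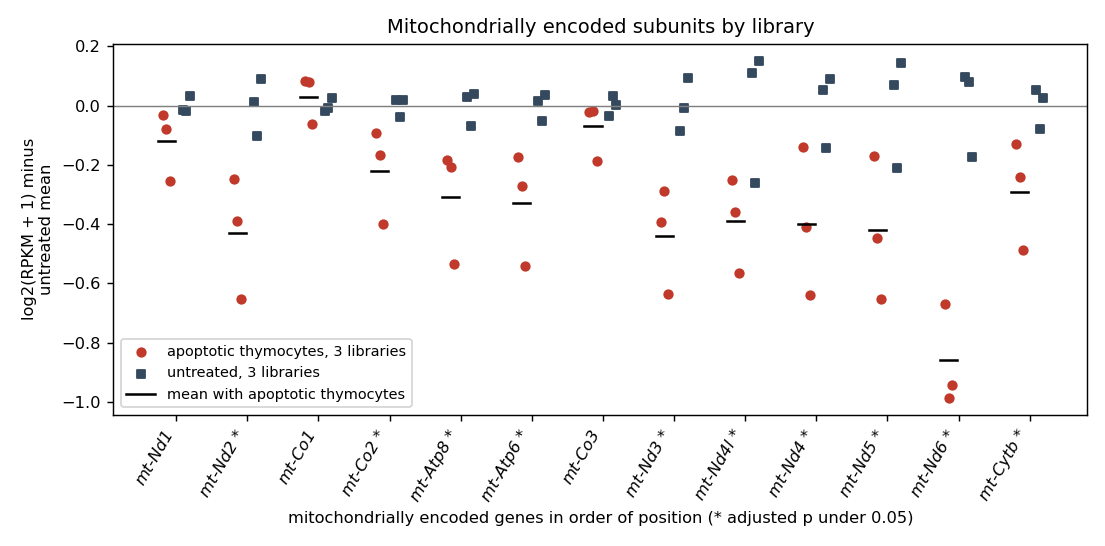
Level of each mitochondrially encoded gene in every library as log2(RPKM + 1) minus the untreated mean of that gene, in order of position on the genome; red circles are the 3 libraries with apoptotic thymocytes, dark squares the 3 untreated libraries, black bars the means with apoptotic thymocytes, and asterisks mark an adjusted p under 0.05. mt-Nd6 lies lowest with a mean of -0.86, and mt-Co1 lies at 0.03.

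The 35 nuclear complex I genes had a median log2 change of 0.12: 16 rose, 1 fell and 18 did not pass. The shares were 45.7% higher and 2.86% lower, against 18.8% and 46.0% of all tested genes. The 7 core subunits, which carry the flavin and the iron-sulfur clusters of the arm that reaches into the matrix, held 2 of the rises, Ndufv2 and Ndufs8. This is 28.6%, against 18.8% of all tested genes. Ndufs8 did not pass without a filter (limma adjusted p = 0.0587), with TPM scaling (0.164), without the third library with apoptotic thymocytes (0.0519) or without the first untreated library (0.0989). Ndufv2 was at 37, 36.6 and 38.5 RPKM with apoptotic thymocytes, against 29.9, 31.3 and 31.2 RPKM in untreated macrophages, without overlap (log2 change 0.27, SE 0.0423, limma adjusted p = 0.000464). Among the 28 accessory subunits, which surround the core, 14 rose (50%) and 1 fell (3.57%). Of the 10 Ndufb genes, accessory subunits of the membrane arm, 6 rose (60%) and none fell (0 also at an unadjusted p of 0.05 in limma), with a median of 0.21. Of the 12 Ndufa genes counted in complex I, 4 rose (33.3%) and none fell (0 unadjusted), with a median of 0.04. The difference between these families was not tested.

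Ndufb6 had the largest rise in complex I. It was at 49.2, 53.2 and 54.7 RPKM with apoptotic thymocytes, against 37.4, 40.4 and 37 RPKM in untreated macrophages, a 1.37-fold difference of means (52.4 ± 2.83 and 38.3 ± 1.83 RPKM, SD, n = 3 each; limma log2 change 0.44, SE 0.0543, adjusted p = 9.59e-05). Ndufb9 was at 85.1, 87.8 and 97.2 RPKM with apoptotic thymocytes, against 68.6, 67.6 and 67 RPKM in untreated macrophages (log2 change 0.40, adjusted p = 0.000166). The groups were apart for both. Ndufc2, a further accessory subunit of the membrane arm, was the 1 nuclear complex I gene that fell, at 46.8, 50.2 and 52.2 RPKM with apoptotic thymocytes, against 55.6, 62.6 and 55.9 RPKM in untreated macrophages (log2 change -0.22, adjusted p = 0.0113), a call that median-of-ratios scaling ended. Ndufa2, with the highest mean RPKM over all 6 libraries among nuclear complex I genes, was at 75.2, 84.6 and 90.3 RPKM with apoptotic thymocytes and 83.5, 87.8 and 87.8 RPKM in untreated macrophages, with overlapping groups (log2 change -0.05, adjusted p = 0.484; 0.11 with median-of-ratios scaling).

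Complex II, succinate dehydrogenase, is the only one encoded wholly in the nucleus, and its 2 membrane anchor subunits moved apart. Sdhd was at 82.6, 90.1 and 92.9 RPKM with apoptotic thymocytes, against 62.3, 67.1 and 61.2 RPKM in untreated macrophages (log2 change 0.47, SE 0.057, limma adjusted p = 8.65e-05). Sdhc was at 27.5, 28.6 and 30.1 RPKM with apoptotic thymocytes, against 33.7, 35.4 and 36.7 RPKM in untreated macrophages (log2 change -0.29, SE 0.0505, adjusted p = 0.000941). Neither gene's groups overlapped. The ratio of Sdhd to Sdhc, which scaling leaves alone, was 3, 3.15 and 3.09 with apoptotic thymocytes and 1.85, 1.9 and 1.67 in untreated macrophages. Median-of-ratios scaling left Sdhc at a log2 change of -0.12 and ended its call, and the rise of Sdhd remained at 0.64. The catalytic subunits Sdha, the flavoprotein, and Sdhb, the iron-sulfur protein, both had a log2 change of -0.07 and did not pass (limma adjusted p = 0.164 and 0.353). With median-of-ratios scaling they were at 0.09 and 0.10.

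In complex III 4 of the 5 small members rose (80%, against 18.8% of all tested genes), and the 3 larger members did not pass. This split depended on the naming rule and on the scaling. Cyc1, which encodes cytochrome c1 and lies outside the rule, rose by 0.24 (limma adjusted p = 0.0145), a call lost without the second library with apoptotic thymocytes (0.0583). With median-of-ratios scaling Uqcrb and Uqcrc2 also passed as higher (adjusted p = 0.000834 and 0.00119). Of Uqcr10, Uqcr11, Uqcrb, Uqcrh and Uqcrq, all except Uqcrb rose, with a median of 0.22 over the 5. Of the core proteins Uqcrc1 and Uqcrc2 and the Rieske iron-sulfur protein Uqcrfs1, none of the 3 passed (0 also at an unadjusted p of 0.05 in limma), with a median of -0.02; the difference between both classes was not tested. Uqcr10 was at 89.8, 97.1 and 105 RPKM with apoptotic thymocytes, against 68, 72.7 and 65.9 RPKM in untreated macrophages, without overlap (1.41-fold, log2 change 0.49, SE 0.0637, adjusted p = 0.000136). Uqcr11 was at 95.3, 103 and 109.7 RPKM with apoptotic thymocytes, against 75, 81.8 and 74.9 RPKM in untreated macrophages, also without overlap (log2 change 0.40, SE 0.0604, adjusted p = 0.000351). Uqcrq rose by less (log2 change 0.22, adjusted p = 0.0189), and did not pass with TPM scaling (0.0966), without the second library with apoptotic thymocytes (0.0747) or without the first untreated library (0.081). The rise of Uqcrh was smaller still (log2 change 0.15, limma adjusted p = 0.0288). Its call was lost with TPM scaling (0.4), without the second library with apoptotic thymocytes (0.125) and without the first (0.0975) or the third untreated library (0.095).

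Complex IV, cytochrome c oxidase, had the highest nuclear median of the complexes, at 0.19. Of 13 tested genes 9 rose, 2 fell and the other 2 did not pass. The shares were 69.2% higher and 15.4% lower, against 18.8% and 46.0% of all tested genes. Cox5a, which encodes a subunit on the matrix side (chr9:57521232-57532424, plus strand), was at 168, 178 and 190.3 RPKM with apoptotic thymocytes, against 121, 122 and 119.5 RPKM in untreated macrophages. The groups were far apart, and the 1.48-fold difference was the largest rise of any tested member (log2 change 0.56, SE 0.051, limma adjusted p = 1.24e-05). Ndufa4 was at 179.7, 197 and 186 RPKM with apoptotic thymocytes, against 153, 152 and 144 RPKM in untreated macrophages (log2 change 0.33, adjusted p = 0.000412). Cox6b1, the most abundant nuclear member of complex IV, was at 241, 261 and 276 RPKM with apoptotic thymocytes and 225, 240.5 and 216 RPKM in untreated macrophages, and its small rise (log2 change 0.19, adjusted p = 0.024) failed the threshold in 6 of the 14 alternatives, among them leaving out the second or the third library with apoptotic thymocytes or the first or the third untreated library (adjusted p = 0.0555 to 0.107).

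Several complex IV subunits exist as paired isoforms, and the ubiquitous form of each reached the test in these macrophages. Cox4i1, Cox6a1, Cox7b and Cox8a all rose, with log2 changes of 0.19, 0.24, 0.29 and 0.24 (limma adjusted p = 0.0275, 0.0043, 0.00199 and 0.00227), though the Cox4i1 groups overlapped and its call was lost on leaving out any of the same 4 libraries as for Cox6b1 (adjusted p = 0.0611 to 0.107). Cox8a, the most abundant of the 4, was at 234, 253 and 258 RPKM with apoptotic thymocytes, against 206, 214 and 209 RPKM in untreated macrophages. Their partners were below the test filter. The testis forms Cox7b2 and Cox8c and the muscle form Cox8b were listed at 0 in all 6 libraries. As for Ly6g, this is not read as absence. The muscle form Cox6a2 was at 0.117, 0.334 and 0.194 RPKM with apoptotic thymocytes and 0.708, 0.254 and 0.527 RPKM in untreated macrophages, with overlapping groups. Cox4i2, known from lung and from hypoxia, did not exceed 0.0557 RPKM with apoptotic thymocytes or 0.0657 RPKM in untreated macrophages, where 1 read on 1 kb is worth 0.0386 to 0.0518 RPKM. Ndufa4l2, the hypoxia-induced paralog of Ndufa4, was listed at 0 in all 3 libraries with apoptotic thymocytes and at 0, 0.0871 and 0.0452 RPKM in untreated macrophages. Cox6b2, the testis form of Cox6b1, was at 0.21, 0.319 and 0.231 RPKM with apoptotic thymocytes and 1.41, 0.531 and 0.708 RPKM in untreated macrophages; it was not tested, and the groups did not overlap.

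The Cox7a family was the exception. Cox7a2, the ubiquitous form, did not pass (86.7, 94.7 and 91.5 RPKM with apoptotic thymocytes and 83.2, 88 and 82.7 RPKM in untreated macrophages; log2 change 0.10, adjusted p = 0.09; -0.01 with TPM scaling). Cox7a1, the heart and muscle form, was at 2.33, 2.29 and 2.1 RPKM with apoptotic thymocytes, against 3.41, 4.14 and 4.17 RPKM in untreated macrophages, and fell by 0.60 on the log2 scale (SE 0.0731, limma adjusted p = 9.59e-05), the largest fall of any tested nuclear member. Cox7a2l, whose product Scaf1 is known to join complexes III and IV into supercomplexes, was at 117, 127 and 134 RPKM with apoptotic thymocytes, against 157, 168 and 156 RPKM in untreated macrophages, and fell by 0.34 (SE 0.0581, adjusted p = 0.000754). Groups of both falling genes were apart. Relative to Cox7a2 in the same library, Cox7a2l stood at 1.35, 1.34 and 1.46 with apoptotic thymocytes, against 1.88, 1.91 and 1.88 in untreated macrophages. Cox7a1 made up 2.62, 2.36 and 2.24% of the summed RPKM of Cox7a1 and Cox7a2 with apoptotic thymocytes, against 3.94, 4.49 and 4.8% in untreated macrophages.

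Of the 14 tested nuclear genes of complex V, 7 rose, none fell (0 also at an unadjusted p of 0.05 in limma) and 7 did not pass, with a median of 0.15. The share that rose was 50%, against 18.8% of all tested genes, where 46.0% fell. Of the 5 genes of the catalytic F1 head 1 rose (20%), Atp5d (log2 change 0.18, limma adjusted p = 0.0134). It did not pass with TPM scaling (0.139) or without the first untreated library (0.0646). The difference from the 6 rises among the other 9 genes was not tested. Atp5h, a subunit of the peripheral stalk, was at 68.5, 76.2 and 77.1 RPKM with apoptotic thymocytes, against 61.1, 63.9 and 57.9 RPKM in untreated macrophages (log2 change 0.27, SE 0.0583, adjusted p = 0.00291). Atp5f1, also of the stalk, rose by less (log2 change 0.16, adjusted p = 0.00742), a call lost with TPM scaling. Atp5a1, the alpha subunit of F1 and the most abundant nuclear member of complex V, was at 128, 133 and 141 RPKM with apoptotic thymocytes and 131, 141 and 131 RPKM in untreated macrophages, with overlapping groups (adjusted p = 0.954), and its sign depended on the scaling.

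The proton-turned c ring is encoded by 3 genes for the same mature protein. Atp5g3 was at 52.1, 54.7 and 56.5 RPKM with apoptotic thymocytes, against 46.8, 48 and 44.9 RPKM in untreated macrophages, without overlap (log2 change 0.22, SE 0.0471, limma adjusted p = 0.00289). Atp5g1 was at 12.6, 13.9 and 14.3 RPKM with apoptotic thymocytes and 11.8, 12.8 and 11.9 RPKM in untreated macrophages, with a log2 change of 0.15 (adjusted p = 0.0417) that failed the threshold in 6 of the 14 alternatives, 4 of them the same left-out libraries as for Cox6b1 (0.0924 to 0.131). Atp5g2 was listed at 0 in all 6 libraries. Since Atp5g3 and Atp5g1 share coding sequence with each other and with processed copies, their separate values are uncertain where the authors' counting could split reads. Atp5sl (Dmac2), which encodes an assembly factor for complex I and no ATP synthase subunit, fell slightly (log2 change -0.16, adjusted p = 0.0343), a call lost in 7 of the 14 alternatives, with an adjusted p of 0.0663 to 0.117 on leaving out the second or the third library with apoptotic thymocytes or the first or the second untreated library.

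The change of nuclear subunit genes was set beside their length. Over the 74 tested nuclear subunit genes, the log2 change had a Spearman rho of -0.29 with the union exon length in GENCODE M21. With the log2 of that length it had a Pearson r of -0.16. All 10104 tested genes with a length had a rho of -0.14. These correlations are across genes, which are not independent replicates. Of the 37 genes at or below the median length, 24 rose and 3 fell with a median change of 0.20, beside a background of 28.1% higher and 32% lower among all tested genes of the same range of length (419 to 1587 bp). Of the 37 longer ones (1718 to 8086 bp), 13 rose and 1 fell with a median of 0.08, beside a background of 18.8% higher and 45.3% lower. Level moved with the change as well, with a rho of 0.26 against the mean RPKM over the same 74 genes, where all 10104 tested genes with a length had a rho of 0.17. The part of length or level in the rises was not tested.

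**Figure D5:**
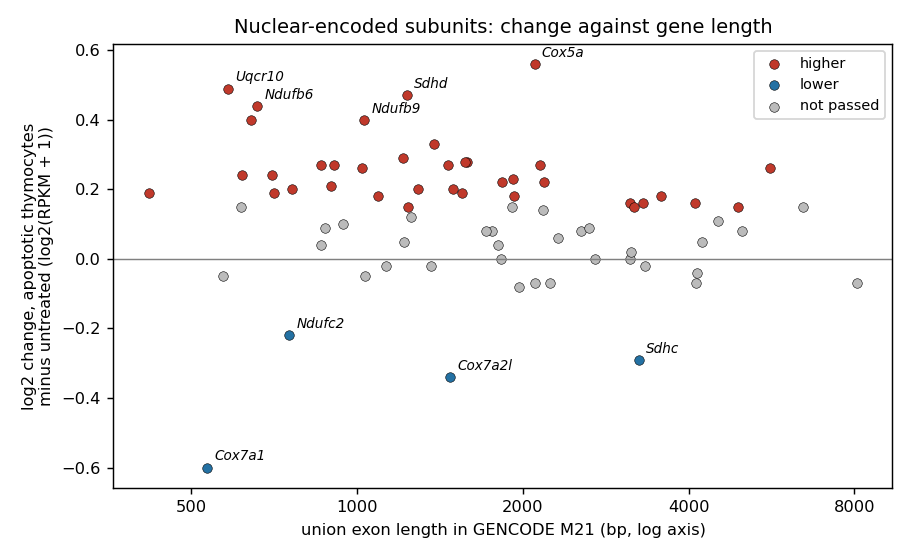
Log2 change (apoptotic thymocytes minus untreated) of the 74 tested nuclear subunit genes against their union exon length in GENCODE M21 on a log axis, one point per gene; red points rose, blue points fell and grey points did not pass. Of the 5 labelled rises 4 lie below the median length of 1652 bp, and of the 4 falls Cox7a1, Ndufc2 and Cox7a2l lie below it and Sdhc above.

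The promoters of nuclear subunit genes were searched for 3 motifs because the factors NRF1, GABPA and YY1 are known to act on such genes. In RefSeq windows from 250 bases before to 50 bases after the start (GRCm38.p6), 65 of the 76 tested nuclear members were matched. CGCATGCG, the palindromic core of the NRF1 motif, was found in 8 of the 65 (12.3%), against 2.07% of 27025 genes. These 27025 are all genes with such a window, tested or not, so this background was not matched to the members for expression. AAGATGGC, for YY1, was found on either strand in 11 (16.9%), against 3.19%, and CCGGAAGT, for GABPA, in 5 (7.69%), against 4.31%. Among the 33 matched members that rose, 4 held the NRF1 core, 4 the GABPA motif and 6 the YY1 motif, and among the 32 that did not rise, 4, 1 and 5 held them. Stretches of 3 promoters with the NRF1 core (capitals) are printed on the strand of the gene to show where it sits. They are examples from the genes with this core and were picked after their values were seen.
Cox6a1: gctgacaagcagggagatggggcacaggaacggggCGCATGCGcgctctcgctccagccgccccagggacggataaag
Ndufa11: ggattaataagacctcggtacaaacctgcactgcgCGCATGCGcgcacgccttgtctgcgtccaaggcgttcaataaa
Atp5k: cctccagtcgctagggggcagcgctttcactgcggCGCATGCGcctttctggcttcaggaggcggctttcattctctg
These stretches lie at chr5:115349077-115349154 (minus strand) for Cox6a1, at chr17:56717668-56717745 (plus strand) for Ndufa11 and at chr5:108434406-108434483 (minus strand) for Atp5k. Cox6a1 rose (log2 change 0.24), Ndufa11 rose by less with overlapping groups (0.18, limma adjusted p = 0.031, and 0.0657 to 0.11 on leaving out any of the 4 libraries named for Cox6b1), and Atp5k did not pass (0.15, adjusted p = 0.126). A match of letters is a description and not a binding site.

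The genes that surround the chain were read from companion lists of 137 further genes, of which 122 were tested: 24 rose (19.7%, against 18.8% of all tested genes) and 26 fell (21.3%, against 46.0%), with a median of -0.01. Of the mobile carriers and subunits outside the naming rule, 4 of 9 tested rose (44.4%). Cyc1, which encodes cytochrome c1 of complex III, was at 47.8, 54.9 and 56.4 RPKM with apoptotic thymocytes, against 42, 47.1 and 45.3 RPKM in untreated macrophages (log2 change 0.24, limma adjusted p = 0.0145), and Ndufab1, the acyl carrier subunit of complex I, rose by 0.14 (adjusted p = 0.0251). Neither passed with TPM scaling (adjusted p = 0.0611 and 0.489), without the second library with apoptotic thymocytes (0.0583 and 0.0682) or without the first untreated library (0.0649 and 0.0733). Ndufab1 did not pass without the second untreated library either (0.087). Cytochrome c itself, Cycs, was at 8.03, 8.83 and 7.48 RPKM with apoptotic thymocytes and 7.51, 8.61 and 8.51 RPKM in untreated macrophages and did not pass (log2 change -0.02; 0.14 with median-of-ratios scaling), and its testis form Cyct was listed at 0 throughout. AA467197, which encodes a paralog of Ndufa4, and Atpif1, the inhibitor of the ATP synthase, did not pass either (log2 changes 0.02 and 0.06, at -0.05 and -0.06 with TPM scaling).

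Of 50 tested assembly factors, 10 rose and 8 fell (20% and 16%, beside 18.8% and 46.0% of all tested genes), with a median of 0.04. Selrc1 (Coa7), a complex IV assembly factor, rose to 4.18, 4.54 and 4.2 RPKM with apoptotic thymocytes, against 2.69, 3.06 and 2.78 RPKM in untreated macrophages (log2 change 0.47, limma adjusted p = 0.000123). 2310016M24Rik (Cox14), from the same list, rose by 0.29 (adjusted p = 0.00211). Ecsit and Tmem126a, of complex I assembly, rose by 0.37 and 0.31 (adjusted p = 0.00351 and 0.00722), while Ndufaf6 and Foxred1, which also act in complex I assembly, fell by 0.27 and 0.25 (adjusted p = 0.00179 and 0.0119), the call of Foxred1 being lost with median-of-ratios scaling. Cox15 and Cox10, which make the heme A that complex IV needs, fell by 0.37 and 0.27 (adjusted p = 0.000277 and 0.00591), the second call being lost with median-of-ratios scaling. Of 11 tested genes of coenzyme Q synthesis 2 rose and 4 fell (18.2% and 36.4%, beside 18.8% and 46.0% of all tested genes). Adck3 (Coq8a), at 0.408, 0.357 and 0.433 RPKM with apoptotic thymocytes and 1.05, 1.13 and 1.28 RPKM in untreated macrophages, is 1 of those falls, but it reached the test through its untreated values alone and its p is not given. Its paralog Adck4 (Coq8b) rose by 0.24 (adjusted p = 0.00827). Coq10b and Coq2 fell by 0.40 and 0.24 (adjusted p = 0.00278 and 0.00223), the call of Coq2 being lost with median-of-ratios scaling.

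Genes that copy, transcribe and process mitochondrial DNA had 1 rise and 6 falls among 28 tested, with a median of -0.05. The shares were 3.57% higher and 21.4% lower, both below the 18.8% and 46.0% of all tested genes, and 21 genes did not pass. Polg, the mitochondrial DNA polymerase, was at 7.48, 7 and 7.34 RPKM with apoptotic thymocytes, against 10.4, 10.5 and 10.5 RPKM in untreated macrophages (log2 change -0.47, SE 0.0458, limma adjusted p = 1.96e-05). Fastkd3, a mitochondrial RNA-binding protein, fell by 0.50 (adjusted p = 3.11e-05), and Tfam, which packages mitochondrial DNA and starts its transcription, fell by 0.22 (adjusted p = 0.00492), a call lost with median-of-ratios scaling. Slirp, which with Lrpprc is known to stabilise mitochondrial messengers, was the 1 gene that rose (log2 change 0.28, adjusted p = 0.00242). The mitochondrial RNA polymerase gene Polrmt did not pass (log2 change 0.03, adjusted p = 0.715). The rows of both mitochondrial ribosomal RNAs and of the 22 mitochondrial transfer RNAs were listed at 0 in every library, so the protein-coding genes were the only mitochondrial transcripts with values.

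Of 9 tested regulators of respiratory genes, 2 rose and 5 fell (22.2% and 55.6%, near the 18.8% and 46.0% of all tested genes). Esrra, a nuclear receptor known to activate respiratory genes, was at 20.8, 20.4 and 21.8 RPKM with apoptotic thymocytes, against 16.1, 17.3 and 17.1 RPKM in untreated macrophages (log2 change 0.30, limma adjusted p = 0.000464), and Sirt3, the mitochondrial deacylase, rose by 0.27 (adjusted p = 0.00204). Sirt1 fell by 0.64 and Gabpa by 0.44 (adjusted p = 0.000165 and 0.000629), and Hcfc1, a cofactor of such promoters, fell by 0.38 (adjusted p = 4.62e-05). Nrf1 did not pass (log2 change -0.10, adjusted p = 0.171). Of 15 tested genes of inner membrane exchange, uncoupling and membrane shape, 5 rose and 3 fell (33.3% and 20%, beside 18.8% and 46.0% of all tested genes). The adenine nucleotide carriers moved apart: Slc25a5 was at 179, 198 and 194 RPKM with apoptotic thymocytes, against 156, 163 and 156 RPKM in untreated macrophages (adjusted p = 0.00166), and Slc25a4 was at 35.2, 36.8 and 37.7 RPKM with apoptotic thymocytes, against 50.1, 52.5 and 49.7 RPKM in untreated macrophages (log2 changes 0.26 and -0.46, adjusted p = 1.86e-05 for the second). Ucp2, an inner membrane carrier of the uncoupling protein family, was at 122, 129 and 137 RPKM with apoptotic thymocytes, against 98.2, 102 and 100.1 RPKM in untreated macrophages (log2 change 0.36, adjusted p = 0.000244).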

How the data were processed

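One deposited table gave RPKM values, made by the authors, for each gene in 6 libraries of poly(A) RNA, 3 per group (per the file headers). Per the submitters' processing notes the genome was GRCm38 (mm10). Which aligner and counting rule they used, its use of strand and its treatment of reads that match several places is not given in the sources used here, so subunit genes with processed pseudogenes, and mitochondrial genes with nuclear copies, carry that uncertainty. No value column was left unmapped. Depth was recovered from genes with 1 exon: 96.67% to 98.63% of 145 to 162 such genes per library gave whole reads within 0.01 of a read.

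The 10173 genes that reached 1 RPKM in at least 3 libraries were tested in limma 3.58.1 with trend (R 4.3.3) on log2(RPKM + 1), with group as the only term and Benjamini-Hochberg adjustment over all tested genes, called at 0.05; a fold on this scale understates changes of low genes. A log2 change, its SE and its adjusted p come from this fit and are apoptotic thymocytes minus untreated. The fit was also run on simulated data without a shift between libraries, so that run does not bear on the dependence on scaling. Sums and ratios have no test. Alternatives were a pseudocount of 0.1, no filter, a filter of 5 RPKM, median-of-ratios and upper-quartile scaling, a library total without mitochondrial genes, the replicate number as a block, leaving out each library, and TPM scaling, added after seeing the data. Tables and figures were made with Python 3.11.15, pandas 2.3.3 and matplotlib 3.10.9.

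The members and the companion and marker lists were chosen with earlier results of these data known. Named were all mitochondrial members, isoform families, all nuclear falls, and per complex the 3 tested nuclear members with the smallest p and the most abundant one. Also named were 6 set genes (Cyc1, Ndufab1, Cycs, Cyct, AA467197, Atpif1). Per companion list the plan was to name up to 3 genes per direction with the smallest p. Of these, Ndufaf3, Sco2, Fam36a, Sdhaf2, Atpaf2, Coq7, 2010107E04Rik, Minos1, Apool and Opa1 are not described above. Subunits named only in a count or for a motif, and Polrmt, Lrpprc, Nrf1 and Sdhb, were added after their values were seen. Of 182 list entries, 182 were found, 31 under another symbol.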

Additional observations from a re-analysis of the deposited data

How the results depend on the processing

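Median-of-ratios and upper-quartile scaling gave 57 and 58 nuclear rises and 2 nuclear falls each, 1 mitochondrial rise and 3 mitochondrial falls each, summed ratios of 0.989 and 0.991 for mitochondrial and 1.26 and 1.26 for nuclear members. TPM scaling gave 21 nuclear rises, 15 nuclear falls and a nuclear summed ratio of 1.03. Without a filter 3 mitochondrial members fell; the cause was not tested. Leaving out a library gave 24 to 46 nuclear rises (24 without the second library with apoptotic thymocytes), 4 to 5 nuclear falls, 3 to 11 mitochondrial falls (4 and 3 without the first and the third untreated library), 32 to 61 changed subunit genes and 33 to 54 changed companion genes, with summed ratios of 0.846 to 0.927 and 1.1 to 1.15. Over all tested genes, leaving out a library gave 1549 to 1949 rises and 3657 to 4708 falls, against 1915 and 4679 with all libraries. The mitochondrial to nuclear ratio stayed at 0.788 under every scaling and ran from 0.733 to 0.847 on leaving out a library.

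Signs turned for a number of genes that did not pass, and those listed here are not all of them. With median-of-ratios and upper-quartile scaling they were mt-Nd1 (0.05, 0.05), mt-Co3 (0.10, 0.10), Ndufa2 (0.11, 0.12), Sdha (0.09, 0.10) and Sdhb (0.10, 0.10). Uqcrc1 (0.13, 0.13), Uqcrfs1 (0.15, 0.15), Atp5a1 (0.17, 0.17) and Cycs (0.14, 0.14) turned as well. With TPM scaling they were mt-Co1 (-0.08), Cox7a2 (-0.01), Uqcrb (-0.02), Uqcrc2 (-0.03), AA467197 (-0.05) and Atpif1 (-0.06). On leaving out a library they were Ndufa2 (range -0.11 to 0.02), Atp5a1 (-0.04 to 0.03), Cycs (-0.07 to 0.04) and AA467197 (-0.09 to 0.08).

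The fit with a replicate block gave 38 nuclear rises, 5 nuclear falls and 10 mitochondrial falls. Same-numbered libraries correlated at 0.197, -0.031 and -0.162 in their deviations from the group means. This shows no pairing by number, but with 3 libraries per group it cannot exclude one. The 3 libraries in each group limit the precision, and intervals on reads would cover counting error only.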
